A study of Mus musculus with 2 samples.

Results

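The enzymes of lysine breakdown were followed on 2 one-colour microarrays of mouse intestinal epithelial cells. The set holds 6 genes, Aass, Aldh7a1, Aadat, Dhtkd1, Gcdh and Pipox, among 23619 genes named on the array, and takes every non-control probe that carries one of these names in the scanner files. That gave 7 probes among 55678, with 2 for Aldh7a1 and 1 for each of the others, and each probe was spotted once. The set was chosen by the Aass signal, which was bright on one array and dim on the other, so the Aass values are a description and are not tested. The other 5 genes were taken by pathway, with earlier results of these data known, and all are described whatever their values.

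Both groups were wild-type male mice, and each group is 1 array. Pieces of intestine were kept for 2 h either in a vehicle of 0.05% DMSO and 0.25% ethanol or with the primary bile acid cholic acid at 0.5 µM, and RNA was then taken from the epithelial cells. The titles mark the segment only with the letters S_I. Strain, age and the number of mice are not stated in the labels used here. The study looks for genes that bile acids may regulate through PPARα, a nuclear receptor of fatty acid metabolism. With 1 array per group there is no spread between replicates, no test of the conditions was possible, and the treatment cannot be told apart from any other difference between the 2 samples. The errors given are those of the scanner software for a spot, not of mice or segments.

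Lysine is an essential amino acid, and most of it is broken down inside mitochondria. Aass, a protein with both lysine-ketoglutarate reductase and saccharopine dehydrogenase activity, joins lysine to 2-oxoglutarate and splits the product to aminoadipate semialdehyde. Aldh7a1 oxidises the semialdehyde to aminoadipate, Aadat turns aminoadipate into 2-oxoadipate by transamination, Dhtkd1 is the first subunit of the dehydrogenase complex that makes glutaryl-CoA, and Gcdh turns glutaryl-CoA into crotonyl-CoA. Pipox is a peroxisomal oxidase of pipecolate, the intermediate of another route of lysine breakdown, and of sarcosine. The pathway is known best from liver and kidney.

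Each level rests on a probe of 60 bases. The first 30 bases of the probes are shown for 4 of the 6 genes, because their levels below rest on them, in lower case from the 5′ end, since no part of them was singled out.
Aass: tattgtgcttccttttccccgagaacatat
Aadat: gcagggtttttctatttgaaggaaatttca
Dhtkd1: ccatttgctaagaaggcagatgattcggaa
Pipox: gacactgggtgaacttgcgattgctttgac

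On mm9, the build of the file headers, the Aass probe (NM_013930) lies on the minus strand at chr6:23022668-23022727. The Aadat probe (NM_011834) is on the plus strand at chr8:63024408-63024467. The Dhtkd1 probe (NM_001081131) lies at chr2:5825028-5825087 and the Pipox probe (NM_008952) at chr11:77694273-77694332, both on the minus strand. The 2 Aldh7a1 probes lie on the minus strand of chromosome 18, at 56686001 to 56686060 and at 56686429 to 56686488. In which exons the probes lie was not analysed here. The GC content of the probes ran from 35% (Aadat and 1 Aldh7a1 probe) to 45% (Gcdh and Pipox), with Aass at 40%.

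Aass was the only member that was bright on 1 array and dim on the other. Its processed signal, the spot intensity after background subtraction within the array, was 13.1 ± 3.28 (scanner error) with vehicle. With cholic acid it was 1570 ± 157. The vehicle spot was not well above background by the scanner's flag, although it did carry the weaker flag of a positive and significant signal, and the lowest signal flagged well above background on that array was 14.6. No Aass spot was saturated or flagged as non-uniform, and the ratio of the 2 unscaled signals was 119.8.

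**Figure D1:**
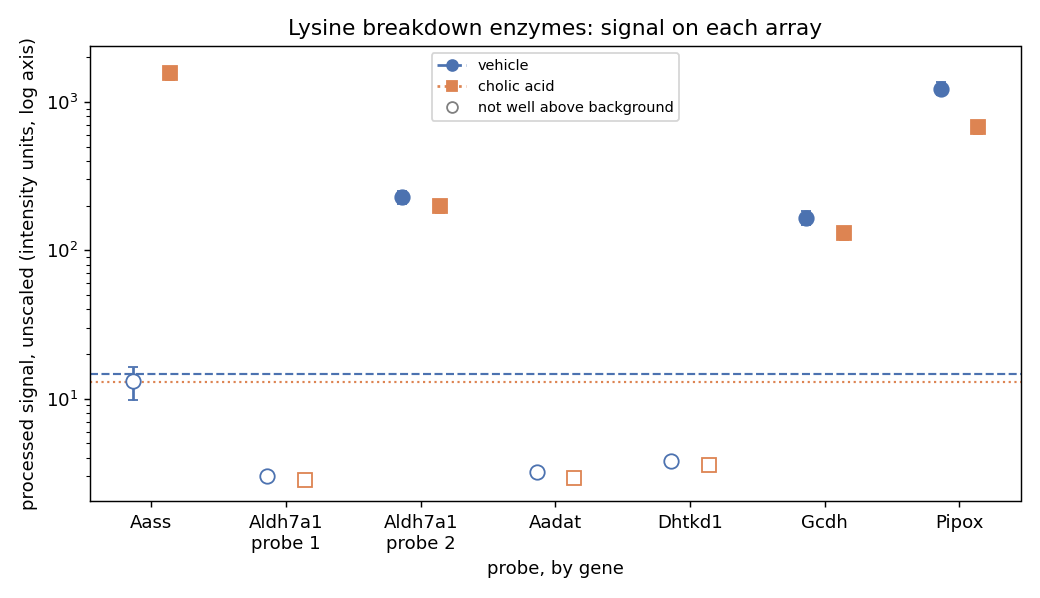
Unscaled processed signal (log axis) of the 7 probes on the vehicle array (blue circles) and the cholic acid array (orange squares), 1 spot each. Open symbols were not well above background, bars are the scanner error where it is under 50% of the signal, and the horizontal lines mark the lowest signal well above background on each array, 14.6 (dashed) and 13.0 (dotted). Only Aass crosses these lines between the arrays.

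Signals were scaled by subtracting each array's 75th percentile of log2 signal, taken over probes bright enough to be flagged on both arrays, 1060 for vehicle and 741 for cholic acid in signal units. Because the vehicle spot was dim, the Aass difference is a bound: the bright scaled signal against the higher of the dim spot's own scaled signal and the lowest scaled signal well above background on that array. The bound was 7.27 on the log2 scale, so Aass was at least 153.8-fold higher with cholic acid relative to this floor and scaling. Scanner error does not enter a bound. A dim spot can also read above the floor, as that of Sugct, a gene listed below, did at 16.9 with vehicle. Here and below, bounds worded as at least a given fold or log2 value are therefore not strict lower limits. Aass ranked 1 of 736 genes detected with cholic acid but not with vehicle, 49.2% of which had a bound of at least 2-fold. The set was chosen by this Aass signal, so the rank is a description only. In all, 3.12% of named genes had a bound in this direction. Against the dim spot's own value the difference was 7.42. The bound was lower, at least 32.7-fold, with normexp background correction, which adds an offset of 50, and at least 82.8-fold with scaling on the spike-in probes. In bulk epithelial RNA, more cells that express a gene and more RNA per cell cannot be told apart.

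Of the 6 members, 3 were measured, meaning that both arrays flagged them well above background, against 54.2% of named genes. Of these 3, 0 were at least 2-fold apart, where 8.55% of the 12806 measured genes were: 6.5% higher and 2.05% lower. Their values follow in the order of the pathway.

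Aldh7a1, the dehydrogenase that takes the product of Aass, was measured by 1 of its 2 probes. That probe gave 229 ± 23.2 with vehicle and 198 ± 20.1 with cholic acid. After scaling the difference was 0.31 ± 0.21 on the log2 scale (propagated scanner error), within the spread of 0.44 (robust SD) among the differences of the 1000 genes closest to it in mean signal. The levels were close on both arrays. The difference was -0.59 with spike-in scaling, which shifts all genes alike, and 0.22 relative to the median of all genes with either scaling. The other Aldh7a1 probe was dim on both arrays at 2.99 and 2.81, so the pair of probes did not agree on whether the gene was detected.

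Aadat and Dhtkd1, which make 2-oxoadipate and then glutaryl-CoA, did not rise well above background on any array. The Aadat probe read 3.22 ± 3.16 with vehicle and 2.94 ± 2.95 with cholic acid. The Dhtkd1 probe read 3.83 ± 3.84 and 3.59 ± 3.60. The errors are as large as the signals, the scanner software had put a surrogate value in 3 of these 4 spots, and no fold is given. The remaining spot, Aadat with vehicle, carried the weaker flag of a positive and significant signal.

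Gcdh, the flavoprotein that oxidises glutaryl-CoA, gave 166 ± 16.9 with vehicle and 131 ± 13.5 with cholic acid. The scaled difference was 0.17 ± 0.21, smaller than its scanner error and than the spread of 0.50 among genes of like signal. The value was -0.05 with the 75th percentile over all probes and -0.72 with spike-in scaling, which shift all genes alike, so relative to the median of all genes it was 0.09 in these settings too.

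Pipox, on the pipecolate route, gave 1230 ± 123 with vehicle and 678 ± 67.8 with cholic acid. It was 1.81-fold lower with cholic acid before scaling and 1.27-fold lower after it (log2 difference -0.34 ± 0.20), with a spread of 0.38 among the nearest genes. Of all measured genes, 17.0% had a lower difference. Pipox was lower under each of the 12 alternative settings, and it passed 2-fold in 1 of them, spike-in scaling, at -1.24.

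The scaling sets these small differences. The median difference over all 12806 measured genes was 0.08. It was shifted by -0.23 with the percentile over all probes, by -0.13 with median centring, by -0.15 with quantile normalization, by -0.12 with loess, by -0.13 with a correction for probe GC content, by -0.15 in the authors' processed values, by -0.89 with spike-in scaling, by 0.10 with normexp and by 0.31 with no filter on dim probes. Relative to that median in each setting, Pipox stayed below it in all 12 alternatives, from -0.74 to -0.27, and Aldh7a1 ran from -0.03 to 0.29. Gcdh ran from -0.22 to 0.10. Higher genes made up 76.0% of all genes at least 2-fold apart as scaled here, 43.8% with the percentile over all probes, 58.0% with median centring, 51.3% with quantile normalization and also in the authors' processed values, 56.9% with loess, 59.7% after the GC correction and 2.43% with spike-in scaling.

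**Figure D2:**
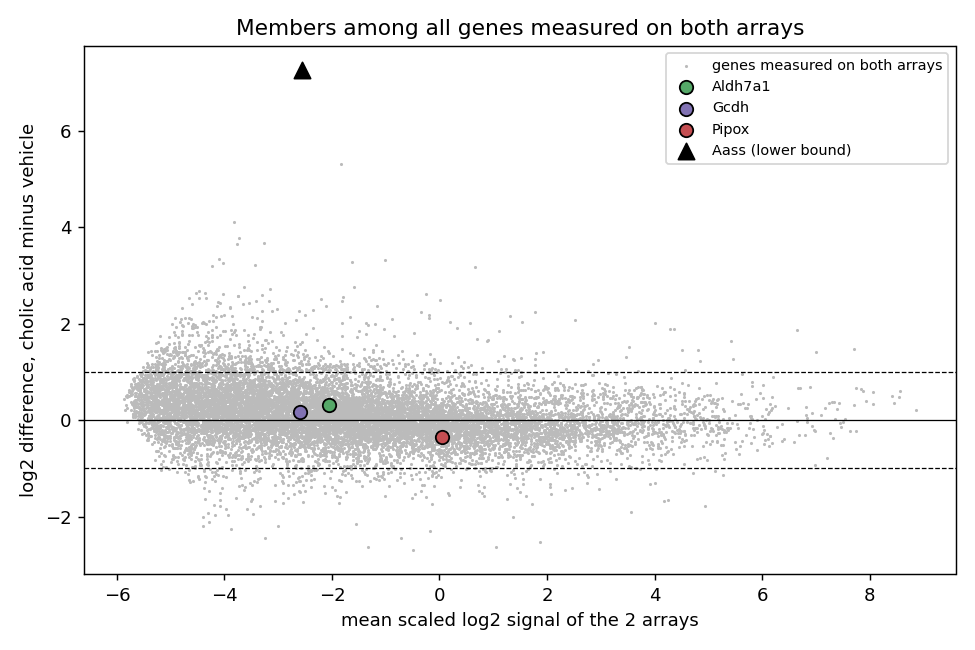
Log2 difference (cholic acid minus vehicle) against mean scaled log2 signal for the 12806 genes measured on both arrays (grey points), with 3 members in colour and the Aass bound as a triangle, placed at the mean of its bright signal and its floor. Dashed lines mark 2-fold: Aldh7a1 (0.31), Gcdh (0.17) and Pipox (-0.34) lie between them, and Aass (at least 7.27) lies above every grey point.

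**Figure D3:**
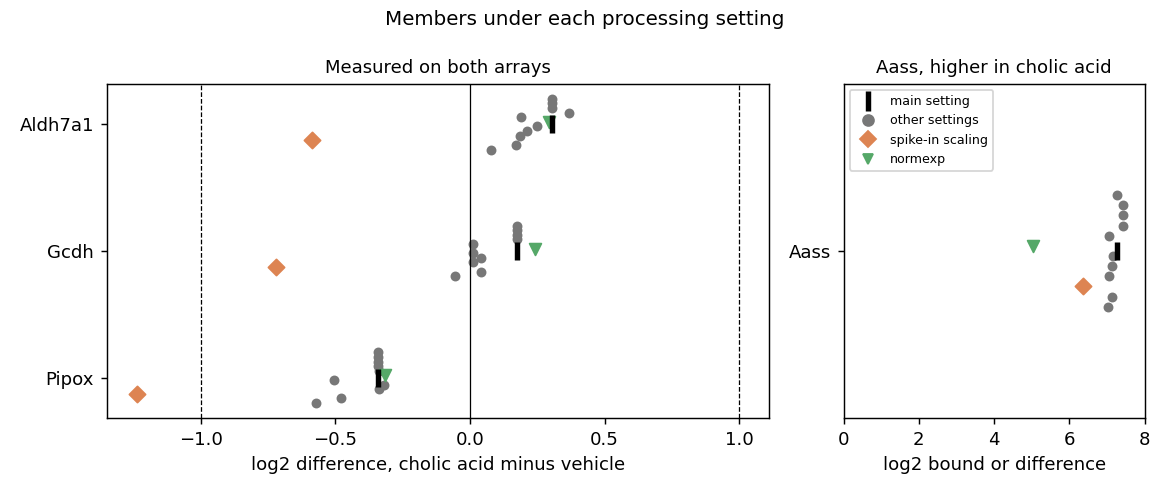
Log2 difference of the 3 measured members (left) and log2 bound or difference of Aass (right) under the main setting (black bar) and 12 alternatives (symbols); dashed lines mark 2-fold. The diamond (spike-in scaling) lies lowest for the 3 genes on the left, and the triangle (normexp, 5.03) lies lowest for Aass.

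The genes whose pattern was most like that of Aass, by the size of a bound in the same direction over these 2 arrays, were Mbl2, Retnlb, Pla2g4c, H2-Ea and Ms4a1. Each has 1 probe on the array. Mbl2, a mannose-binding lectin, read 2.96 with vehicle and 998 with cholic acid, and its log2 bound was 0.65 below that of Aass. Retnlb, a secreted protein of goblet cells, read 3.15 and 997. Pla2g4c, a phospholipase, read 11.3 and 347, with a log2 bound 2.18 below that of Aass.
H2-Ea, a chain of an MHC class II molecule, read 7.66 and 318, at least 31.2-fold higher. Ms4a1, the B cell antigen CD20, read 3.73 and 164, at least 16.1-fold higher. Aass and the 5 genes were all dim on the vehicle array because only such genes were compared, so this is not a result. Their floor was the same, so the order of their bounds is that of their cholic acid signals. With no filter on dim probes, where the dim spot's own signal is used, Mbl2 (8.91) and Retnlb (8.82) had larger log2 differences than Aass (7.42).

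Some genes are known to differ between inbred mouse strains, and the strain is not stated in the labels used here. Of the genes named above, H2-Ea is silent in strains of some MHC haplotypes. A separate list of 6 genes that differ between strains by copy number or null allele was chosen with earlier results of these data known. Pla2g2a, a secreted phospholipase with a null allele in several strains, read 346 with vehicle and 12.5 with cholic acid, at least 18.6-fold lower. Cwc22, a splicing factor with extra gene copies in some strains, was 9.99-fold higher, and its 2 measured probes differed by 3.75 and 2.89. The other 4 genes of that list were measured and lay within 2-fold: Nnt (0.04), Glo1 (-0.77), Ide (0.08) and Entpd4 (0.20). The part of these differences in the Aass result was not tested.

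Levels of some markers of other cell types and of gut position also differed between the arrays. These lists were chosen with earlier results of these data known. All 9 enterocyte markers were measured on both arrays, with differences from -0.68 (Sis) to 0.61 (Fabp2). Among them 0 were at least 2-fold apart, against 8.55% of all measured genes. All 8 T cell markers were above 0, as were 57.3% of all measured genes, with a summed scaled signal (in units of the array's 75th percentile) of 12.7 with vehicle and 25.8 with cholic acid. The 5 B cell markers summed to 0.258 and 1.74, with 3 measured. All of these were at least 2-fold higher, as were 6.5% of all measured genes. Fibroblast markers summed to 0.427 and 0.711, with 4 of 5 measured and Lum dim on both arrays. Smooth muscle markers summed to 0.760 and 0.946, a sum carried mostly by Tagln (0.21), while Cnn1 was at 1.74, Acta2 at 0.98, and Myh11 and Des were dim on both.
Pancreatic acinar markers summed to 0.820 and 0.436, with 3 of 6 dim on both arrays. Clps was 2.13-fold lower as the mean of 2 probes, the brightest of which read 627 and 238 before scaling. The 2 probes were not compared here. Ctrb1 was at -0.21. Pnlip was above background with vehicle alone, at 43.2, and at least 2.32-fold lower. All sums of markers take in every probe of the list, dim ones too. Of 3 markers of the distal small intestine, Fabp6 (5.32, the largest difference of any measured gene) and Slc10a2 (2.26) were higher and Osr2 was at -0.43. With 1 array per group, gut position and the cholic acid itself cannot be told apart in these markers. Of 5 proximal markers, 4 were measured, all below 0: Onecut2 was 4.92-fold lower, and Lct (-0.44), Fabp1 (-0.27) and Gata4 (-0.12) lay within 2-fold. Of 8 hepatocyte markers, Alb, Ahsg, Hpx, Tdo2, Hpd and F2 were dim on both arrays, and Apoh was above background with vehicle alone at 18.9. Serpina1a was at 0.43 as the mean of 2 probes, the brightest of which read 37.3 and 49.5 before scaling. The hepatocyte list summed to 0.106 with vehicle and 0.141 with cholic acid. The part of these cell types and of gut position in the Aass result was not tested.

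Aass was chosen by its signal and had the largest bound of the 736 genes. That the probes around it on chromosome 6 had smaller differences follows from this choice and is not a result. A cause shared by the region was not tested. Within 500 kb of the Aass probe lay 18 other probes, 5 of them well above background on both arrays. These had log2 differences from -0.62 to 0.53, with 0 at least 2-fold apart, where 8.55% of all measured genes were. A further 4 were well above background with cholic acid alone, against 3.29% of all probes, with log2 bounds from 0.53 to 1.11, and 9 were dim on both arrays.
The nearest probes were those of Ptprz1, a receptor phosphatase gene, the closest of them 20.6 kb away. Its probes read 3.03 and 14.7, 4.31 and 19.4, and 3.13 and 2.91 (vehicle and cholic acid), so they stayed near the detection limit. On the other side, the 3 probes of Cadps2, a vesicle-release gene, were measured on both arrays, the brightest at 68.3 and 64.7, with scaled differences of 0.51, 0.44 and 0.53. The 1 bound of at least 2-fold belonged to a probe with no gene name, NAP098153-001, which read 3.46 with vehicle and was at least 2.16-fold higher with cholic acid.

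**Figure D4:**
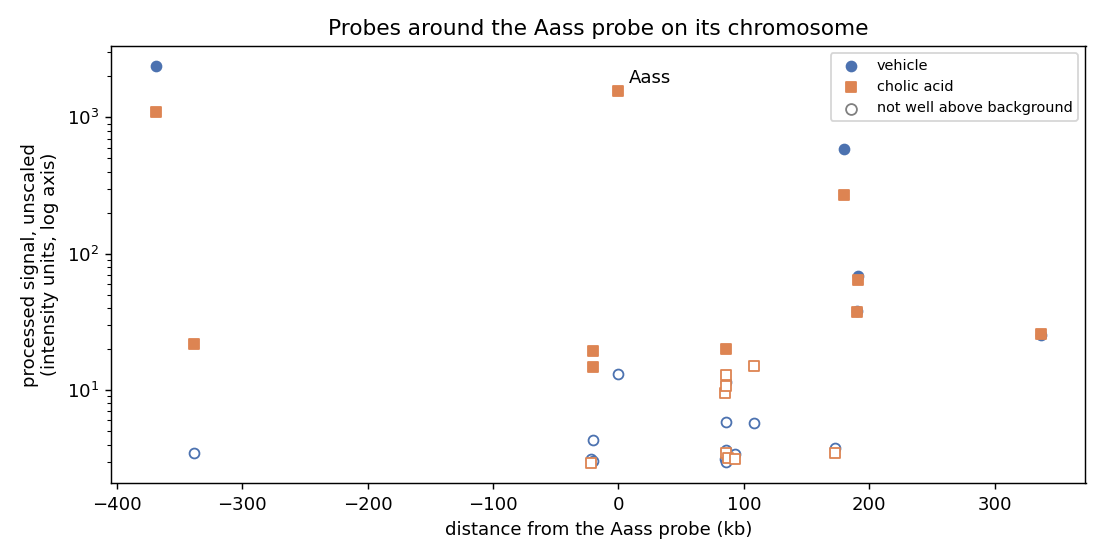
Unscaled processed signal (log axis) of the Aass probe and of 18 other probes within 500 kb of it, against distance in kb, on the vehicle array (circles) and the cholic acid array (squares). Open symbols were not well above background. Aass was chosen by its signal, so its place above the other probes is a description only.

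The study asks about nuclear receptor targets, so the promoters of the members were searched. The 250 bases before the start of Aass are shown because this gene had the largest bound. They come from RefSeq, GRCm38.p6, chr6:23132987-23133236, minus strand, 5′ to 3′, and 5 of the 6 members had a promoter in that table.
Aass: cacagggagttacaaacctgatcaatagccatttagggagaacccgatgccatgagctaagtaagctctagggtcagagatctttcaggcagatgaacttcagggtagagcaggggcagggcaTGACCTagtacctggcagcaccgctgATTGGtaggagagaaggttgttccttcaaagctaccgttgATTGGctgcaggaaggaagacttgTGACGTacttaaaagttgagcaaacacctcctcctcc

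Capitals mark every match, on either strand, to AGGTCA (the half-site of many nuclear receptors), CCAAT (a common promoter box) and TGACGT (a core of cyclic AMP response elements). No match overlaps another. AGGTCA was found 127 bases before the start of Aass, on the opposite strand, and in no other of the 5 promoters, against 14.0% of 32851 promoters of the same length in the table. CCAAT was found in Aass, Dhtkd1 and Gcdh, with 33.8% of all promoters holding it, and TGACGT in Aass alone, with 6.47%. The full repeats AGGTCANAGGTCA and AGGTCANTGACCT, the forms that PPARα and the bile acid receptor FXR are known to bind, matched 0 of the 5, and 0.0335% and 0.00609% of all promoters. A match is a description of letters in a window, and its absence says nothing of the factor.

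Lysine reaches these enzymes through carriers in the cell and mitochondrial membranes. Of 11 carriers listed, 6 were measured, with 0 at least 2-fold apart, where 8.55% of all measured genes were. Their median difference was -0.08, against 0.08 for all genes. Slc3a2, the heavy chain of several amino acid exchangers, read 18100 with vehicle and 9210 with cholic acid and had the largest difference, -0.46. Slc3a1, which pairs with the cystine and lysine carrier Slc7a9 in the brush border, was at -0.42. Slc7a9 itself was at 0.21. The mitochondrial basic amino acid carrier Slc25a29 was above background with cholic acid alone and at least 1.86-fold higher, from signals of 9.13 and 19.0.

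Those partners and later steps of lysine breakdown that were measured were also within 2-fold, where 8.55% of all measured genes were not. Of 14 genes, 11 were measured, with 7 below 0, 4 above it (57.3% of all measured genes were above it) and a median of -0.12. Dld, the dehydrogenase subunit that the Dhtkd1 complex shares with others, was at -0.37, and its 2 probes were at -0.26 and -0.48. Acat1, the thiolase of the last step, was at -0.37, with signals of 1060 and 575. Phykpl, which breaks down phosphohydroxylysine, was at 0.33. Slc25a21, the carrier of 2-oxoadipate, and Sugct, which returns glutarate to glutaryl-CoA, were dim on both arrays. The remaining gene of the list was above background with vehicle alone, with a bound of 1.04-fold lower.

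Methylated lysine is the source of carnitine, and 5 genes of that route were all measured. Bbox1, the last enzyme of carnitine synthesis, read 506 with vehicle and 118 with cholic acid and had a log2 difference of -1.58 (spread of the nearest genes 0.42), lower in each of 12 alternatives. The other 4 lay within 2-fold, with a list median of -0.05.

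Other amino acid pathways gave a scale for these values. In branched-chain amino acid breakdown 19 of 21 genes were measured, with a median of 0.22. Among them 0 were at least 2-fold apart, against 8.55% of all measured genes. The largest differences were those of Pccb, a subunit of propionyl-CoA carboxylase (0.99), Dbt (0.71) and Acadsb (0.60), all from low signals: Pccb read 40.7 and 56.5.
In tryptophan breakdown 7 of 11 were measured, with a median of 0.16. Kmo, kynurenine monooxygenase, read 39.8 and 89.3 and was 3.21-fold higher, but only 0.79 on the log2 scale with spike-in scaling. Kyat1, a kynurenine aminotransferase like Aadat, was 2.00-fold lower, but its 2 probes gave log2 differences of -1.53 and -0.47, and with normexp it was at -0.84.

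In the list of other amino acids 20 of 33 genes were measured, with a median of -0.08. Prodh2, the mitochondrial dehydrogenase of hydroxyproline, read 30.8 with vehicle and 277 with cholic acid and was 12.9-fold higher (log2 difference 3.69, spread of the nearest genes 0.50), or 2.38 on the log2 scale with normexp. This was the largest difference in the 6 lists of related genes. Sardh, the mitochondrial enzyme that shares the substrate sarcosine with Pipox, read 102 and 31.7 and was 2.25-fold lower. Both were below 0, but Sardh was within 2-fold with normexp (-0.35). Cdo1, cysteine dioxygenase, was above background with cholic acid alone, at 11.9 and 21.9, and at least 2.15-fold higher, a bound that was under 2-fold in 8 alternatives (down to a log2 value of 0.21). Over the 6 lists 68 genes were measured, with a median of 0.02. Those at least 2-fold apart were Kmo and Prodh2, higher (2.94%, against 6.5% of all genes), and Bbox1, Kyat1 and Sardh, lower (4.41%, against 2.05%).

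**Figure D5:**
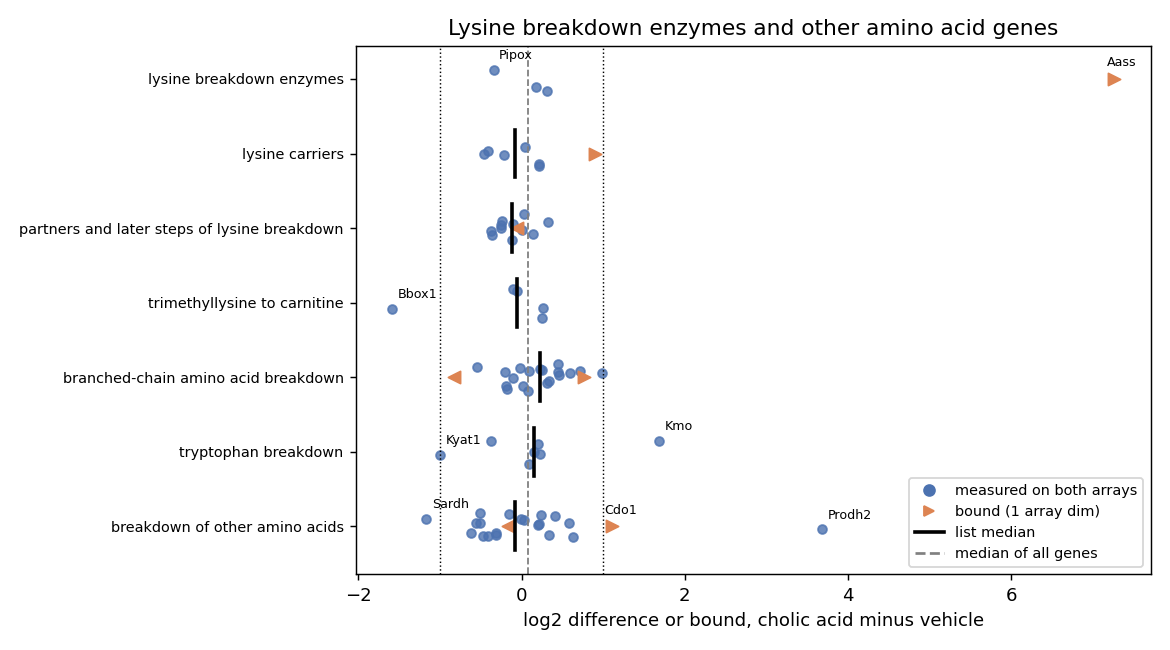
Log2 difference (cholic acid minus vehicle) of the lysine breakdown enzymes and of 6 lists of related genes: points are genes measured on both arrays, triangles are bounds where 1 array was dim, black bars are list medians, dotted lines mark 2-fold and the dashed line is the median of all genes (0.08). Aass (at least 7.27) lies far to the right, followed by Prodh2 (3.69).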

How the data were processed

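Spot intensity was read from the scanner files, which Agilent Feature Extraction 10.7.1.1 wrote for array design 028005 (mm9), per the file headers; the submitters' processing notes list version 9.5.1.1. Per the file headers, the deposited processed intensity has the background subtracted and the array's own trend removed, and a dim spot can hold a surrogate. Other deposited columns are flags for each spot and a p-value against background, per the file headers; the p-value entered no comparison. The authors' value table holds linear intensity whose columns, once sorted, differ by at most 0.0242%, as quantile normalization leaves them.

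Log2 processed signals were averaged over unflagged spots of a probe. Of 55678 probes, 24200 (vehicle) and 24446 (cholic acid) were well above background, and 22612 on both (40.6%), so the 75th percentile over these was subtracted. No spot was saturated. The accessions in the files named 27325 probes through the RefSeq table of GRCm38.p6, symbols 3523, synonyms 546, and 1355 kept the file's name. Genes were valued by averaging the probes that both arrays flagged; other genes got a bound or no value. Genes were counted at 2-fold, with no test, since each group is 1 array. The steps were tested on simulated data.

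Named were all 6 members, the 5 genes with bounds nearest to that of Aass (without predicted or clone names), and in each list those at least 2-fold apart, or else up to 3 with the largest differences; Slc7a9, Slc25a29, Slc25a21, Sugct and the probes around Aass were added after their values were seen. The members and lists were chosen with earlier results of these data known. Alternatives were 6 other scalings, normexp from limma 3.58.1, the authors' table, 3 filters on dim spots, the brightest probe, and limits of 1.5-fold and 3-fold. Python 3.11.15, pandas 2.3.3 and statsmodels 0.14.6 (lowess span 0.3) were used. The sequence and position of 1 probe are not reported here.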

Additional observations from a re-analysis of the deposited data

How the results depend on the processing

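Aass was higher with cholic acid in all 12 alternatives, with log2 values from 5.03 to 7.42; those that moved beyond the spread of genes of like signal were spike-in scaling (6.37) and normexp (5.03). Spike-in scaling, which shifts all genes down, moved Aldh7a1 to -0.59, Gcdh to -0.72 and Pipox to -1.24, so 1 member was then at least 2-fold lower. It moved the list medians to -0.67 (branched-chain amino acids), -0.98 (lysine carriers), -1.01 (partners and later steps), -0.95 (trimethyllysine to carnitine), -0.74 (tryptophan) and -0.97 (other amino acids). The percentile over all probes moved partners and later steps to -0.35. With no filter on dim probes, with the positive and significant flag, and with detection on at least 1 array, Aass counted as measured, so 1 member was at least 2-fold higher. Limits of 1.5-fold and 3-fold left both counts at 0. Of the 12806 measured genes, 832 were at least 2-fold higher, but 268 with normexp and fewest with spike-in scaling (2.43% of its calls). With no filter, which takes in 23617 genes, 2900 were higher. Of the 12806 genes, 263 were lower, but 4305 with spike-in scaling and 104 with normexp. No paired analysis was possible because each group is 1 array. Signal over background limits Aadat, Dhtkd1 and 1 Aldh7a1 probe to no value and Aass to a bound, and 1 array per group limits every value.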
